A study of Mus musculus with 24 samples.

Results

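The nuclear genes for the subunits of oxidative phosphorylation were followed across 24 RNA-seq libraries of mouse liver. They were chosen by symbol alone, as the Nduf a, b, c, s and v series, the Uqcr, Atp5 and Cox4 to Cox8 series, Sdha to Sdhd and Cyc1, without the Ndufaf assembly factors. The rule took 88 of the 35974 symbols in the table. By role, 37 belonged to complex I, 4 to complex II, 9 to complex III, 20 to complex IV and 16 to complex V, and the remaining 2 were pseudogenes (Atp5c1-ps and Uqcrh-ps1). Ndufa4, Ndufa4l2 and Cox7a2l were counted with complex IV and Atp5sl, an assembly factor of the complex I membrane arm that carries an ATP synthase-like name, with complex I.

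The series concerned polyploid hepatocytes in chronic liver disease. All mice were of the strain C3H/HeJ and were either wild type (WT) or transgenic (TGA), and RNA was isolated from liver with an FFPE kit, made for fixed tissue in paraffin. Each genotype had 4 numbered sets, and each set had 3 libraries whose names end in 2, 4 or 8, called class 2, class 4 and class 8 here, which gives 6 groups of 4 libraries. The labels used here name neither the transgene, its promoter or the age of the mice, nor what the suffix stands for, nor whether libraries with the same number came from the same animal. The p-values below therefore reflect no more than how far these libraries scatter, and that scatter may be technical.

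Oxidative phosphorylation is carried out in the inner mitochondrial membrane. Complexes I and II pass electrons from NADH and succinate to ubiquinone, complex III passes them on to cytochrome c, complex IV hands them to oxygen, and complex V makes ATP from the proton gradient that complexes I, III and IV build. Most subunits are encoded in the nucleus and imported, while a small set, including the catalytic core of complex IV, is encoded by mitochondrial DNA, and hepatocytes hold many mitochondria.

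Values are given as log2(normalised count + 1), where 0 means that a symbol is listed at 0. They are not divided by transcript length, so an order of genes by level is an order of counts. Libraries differed widely in coverage, the lowest being TGA number 2 class 4 with 1624 symbols above 0 and the highest WT number 1 class 2 (15147) and class 4 (14469). The most frequent level above 0 ran from 0.083 in WT number 1 classes 2 and 4 to 4.44 in TGA number 2 class 4. It is not a floor of detection, since lower levels occurred, down to 0.16 in the latter library. In 15 libraries every symbol above 0 was also above 0 in a single other library. All 3 libraries of WT number 4, all 6 of TGA numbers 1 and 2 and TGA number 3 class 2, which makes 10, lay 100% inside WT number 1 class 2. The other 5 (TGA number 3 classes 4 and 8 and TGA number 4) lay 100% inside WT number 1 class 4. For the 7 remaining libraries of WT numbers 1 to 3 these shares were 76.0% to 90.9% for the former and 71.7% to 85.8% for the latter. How the table came to hold these nested sets is not given in the sources used here. The nested libraries take in every TGA library but only 3 of the 12 WT libraries, so counts of detected genes were also taken over the 9871 symbols that are above 0 in both of the deep WT number 1 libraries. Of the OXPHOS genes, 26 were in this shared set (11 of complex I, 3 each of complexes II, III and IV, and 6 of complex V), 23 were above 0 in 1 of the pair and 39 in neither.

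Of the 88 genes, 50 were above 0 in at least 1 library and 38 were listed at 0 in all 24. The share above 0, 56.8%, stood beside 59.5% of all symbols in the table. Detection was sparse: 20 genes were above 0 in 1 to 3 libraries, 22 in 4 to 7 and 8 in 8 to 12, and 0 of the 88 were above 0 in more than 12. Because all 38 genes at 0 were also at 0 in both deep WT number 1 libraries, their absence rests on the 9 libraries that are not nested.

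**Figure D1:**
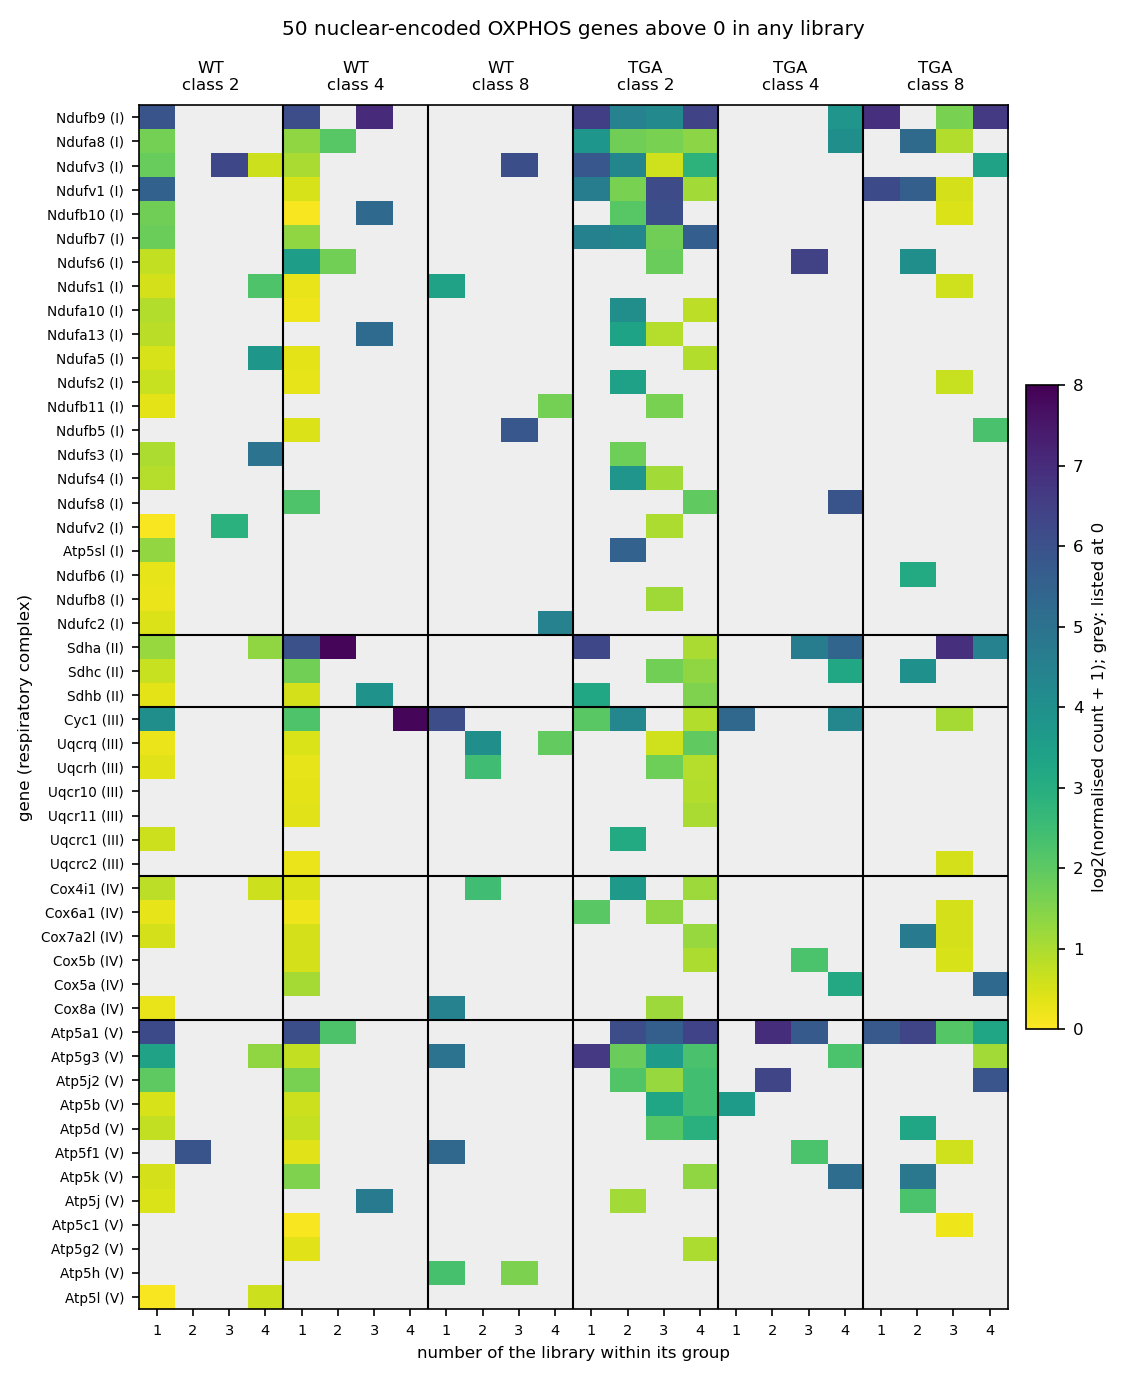
Heat map of the 50 OXPHOS genes above 0 in any library: genes in lines with their complex, the 24 libraries in columns by group and number, colour for log2(normalised count + 1) and grey for 0. WT number 1 classes 2 and 4 hold many genes at low levels (39 and 36 genes), the 4 TGA class 2 libraries hold 10 to 26, and the other 18 libraries hold 1 to 15.

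Complex I had 22 of its 37 genes above 0 somewhere. Its highest mean over the 24 libraries belonged to Ndufb9, an accessory subunit of the membrane arm, at 2.48, the second highest of all 88. In TGA class 2, Ndufb9 stood at 6.52, 4.46, 4.22 and 6.35 in numbers 1 to 4, and in TGA class 8 at 6.93, 0, 1.61 and 6.64. It was at 0 in 3 of the 4 TGA class 4 libraries (3.82 in number 4) and in all 4 WT class 8 libraries. In WT it was above 0 in number 1 class 2 (5.92), number 1 class 4 (6.12) and number 3 class 4 (7.0), so that only TGA class 2 had it in every library.

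Ndufv1 and Ndufv3 were also above 0 in every TGA class 2 library. Ndufv1, the flavoprotein subunit that takes electrons from NADH, was at 4.63, 1.62, 6.13 and 1.10 there, at 6.21, 5.58, 0.50 and 0 in TGA class 8, and at 0 in all TGA class 4 libraries. In WT, Ndufv1 was above 0 in number 1 class 2 (5.53) and number 1 class 4 (0.48) and at 0 in the other 10 libraries. Ndufv3, a small accessory subunit that sits beside it, was at 5.84, 4.34, 0.57 and 2.84 in TGA class 2 and at 3.39 in TGA number 4 class 8, with the other 7 TGA libraries at 0. In WT class 2 it reached 1.87, 0, 6.27 and 0.60, so for Ndufv3 the class 2 groups of the genotypes overlapped. Ndufa8, an accessory subunit on the intermembrane-space side, was above 0 in 4 of 4 TGA class 2 libraries (1.40 to 3.81) and in 1 of 4 WT class 2 libraries (1.67), within the range of the former.

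Other complex I genes were seen less often. Ndufb10 and Ndufs6 were each above 0 in 6 libraries, and Ndufs1, a core iron-sulfur subunit, in 5, of which 3 were WT number 1 libraries. Unlike Ndufv1 and Ndufv3, Ndufs1 was above 0 in 0 of 4 TGA class 2 and 2 of 4 WT class 2 libraries, and Ndufv2, another core iron-sulfur subunit, in 1 and 2. The 15 complex I genes at 0 in all libraries included Ndufs7, another core iron-sulfur subunit, and Ndufab1, the mitochondrial acyl carrier protein.

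Complex II, which also works in the citric acid cycle, had 3 of its 4 genes above 0. Sdha, the flavoprotein that oxidises succinate, had a mean of 1.88 and was above 0 in 10 libraries. It stood at 6.02, 7.88, 0 and 0 in WT class 4, at 6.25, 0, 0 and 1.01 in TGA class 2, at 0, 0, 4.65 and 5.40 in TGA class 4 and at 0, 0, 6.88 and 4.46 in TGA class 8. It was at 0 in all 4 WT class 8 libraries, and no group had Sdha in all of its libraries. Sdhb, the iron-sulfur subunit, and the membrane anchor Sdhc were above 0 in 5 and 6 libraries, and Sdhd, the other anchor, was at 0 throughout.

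Complex III had 7 of 9 genes above 0. Cyc1, cytochrome c1, led with a mean of 1.59 in 10 libraries. It was at 2.04, 4.31, 0 and 0.93 in TGA class 2, at 4.01 in WT number 1 class 2 and 0 in the other WT class 2 libraries, and its highest value, 7.88, was in WT number 4 class 4. Uqcrc1 and Uqcrc2, the core proteins, were above 0 in 2 libraries each, at 3.10 or less. The Rieske iron-sulfur protein gene Uqcrfs1 and Uqcrb were at 0 in all libraries.

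Complex IV had the lowest share of genes above 0 of the 5 complexes, 30.0% (6 of 20), and the lowest mean, 0.085. Its leading gene was Cox5a with a mean of 0.40, from WT number 1 class 4 (1.07), TGA number 4 class 4 (3.18) and TGA number 4 class 8 (5.27) alone. Several complex IV subunits exist as a widely expressed form and a form of muscle, lung or testis. Of the widely expressed forms, Cox4i1 was above 0 in 6 libraries, Cox6a1 in 5 and Cox8a in 3. Cox6b1, Cox7a2 and Cox7b, also widely expressed, were at 0 in all 24 libraries, as were the restricted forms Cox4i2, Cox6a2, Cox6b2, Cox7a1, Cox7b2, Cox8b and Cox8c. Of 4 muscle markers Ckm was at 0 in all libraries, while Acta1 was above 0 in 8, Myh1 in 6 and Mb in 4. The 14 complex IV genes at 0 throughout were at 0 in both deep WT number 1 libraries, so their 0 in the 15 nested libraries goes with the nesting.

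Complex V had 12 of 16 genes above 0. Atp5a1, the alpha subunit of the catalytic head, had the highest mean of all 88 genes, 2.62, and was above 0 in 12 libraries, more than any other. It stood at 0, 6.12, 5.58 and 6.38 in TGA class 2, at 0, 6.96, 5.73 and 0 in TGA class 4 and at 5.78, 6.33, 2.10 and 3.29 in TGA class 8. In WT it was at 6.22 and 6.08 in number 1 classes 2 and 4, at 2.23 in number 2 class 4 and at 0 in the other 9 libraries. Atp5b, the beta subunit of the same head, was above 0 in 5 libraries and reached 3.57 in TGA number 1 class 4. Of the genes for the membrane ring, Atp5g3 was above 0 in 10 libraries, with 6.67, 1.82, 3.60 and 2.29 in TGA class 2, while Atp5g2 was above 0 in 2 and Atp5g1 in 0. Atp5j2, subunit f of the membrane part, was above 0 in 7 libraries. Atp5o, in the peripheral stalk, and Atp5e, the epsilon subunit, were at 0 throughout.

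**Figure D2:**
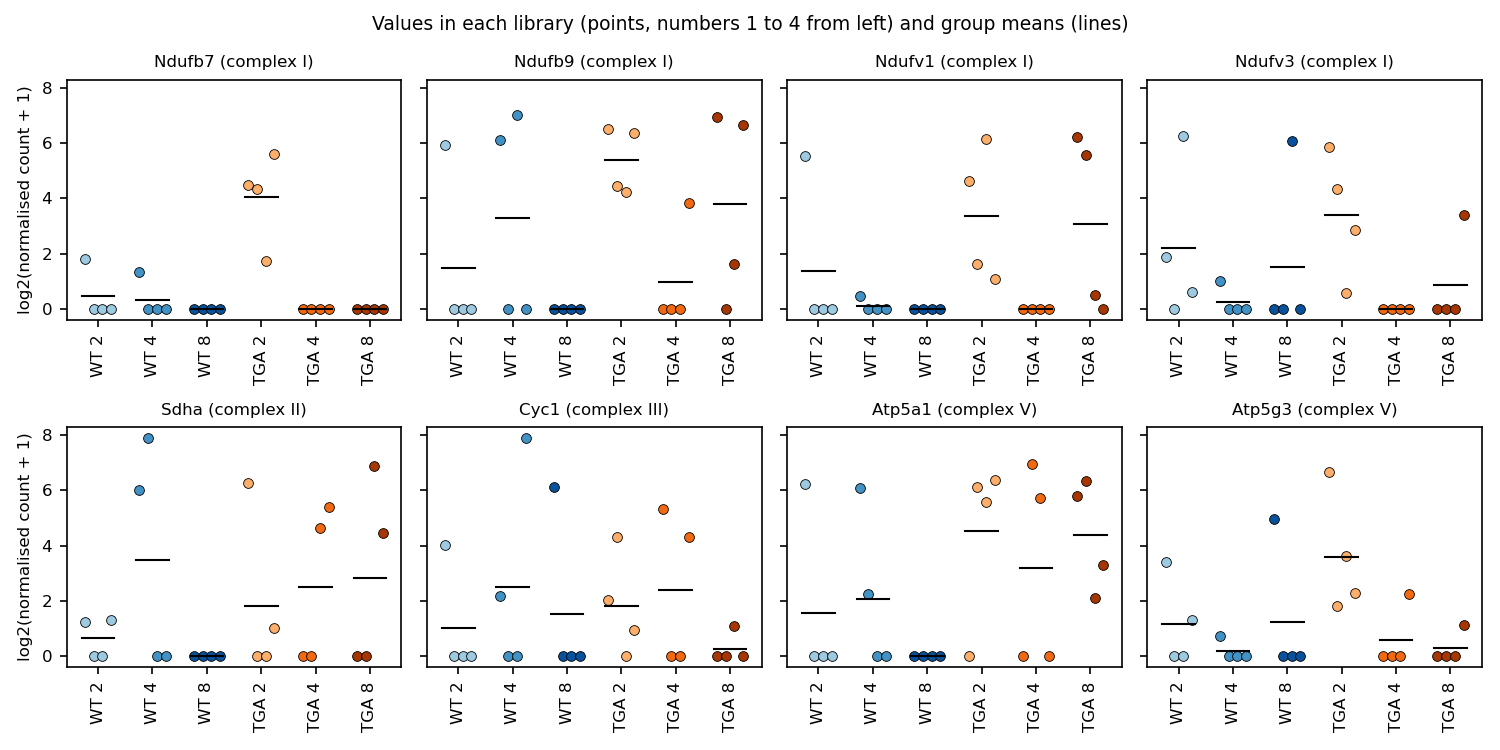
Values of Ndufb7, Ndufb9, Ndufv1, Ndufv3, Sdha, Cyc1, Atp5a1 and Atp5g3, 1 panel each: y axis log2(normalised count + 1), x axis the 6 groups, points for the 4 libraries of a group in order of number and lines for group means. Ndufb7 is above 0 in all 4 TGA class 2 libraries and at 0 in the 8 TGA libraries of classes 4 and 8.

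Counted per library, the number of OXPHOS genes above 0 followed coverage in part. In WT it was 39, 1, 2 and 8 in class 2 (numbers 1 to 4), 36, 4, 5 and 1 in class 4, and 6, 3, 3 and 3 in class 8. In TGA it was 10, 19, 22 and 26 in class 2, 2, 2, 5 and 9 in class 4, and 3, 10, 15 and 8 in class 8. Per 100 symbols above 0 in the same library, the OXPHOS genes made up 0.355, 0.499, 0.454 and 0.402 in TGA class 2. Each of these was above all 20 other libraries, of which TGA number 2 class 8 came nearest at 0.350. WT class 2 reached 0.258, 0.0483, 0.0759 and 0.106, so the groups did not overlap. The share is set against all symbols detected, and its relation to coverage was not tested. Within WT, the deep number 1 libraries of classes 2 and 4 had the highest shares, 0.258 and 0.249, followed by number 1 class 8 at 0.242.

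Over the shared symbols alone, the separation of TGA class 2 held. There, 10, 13, 16 and 21 of the 26 shared OXPHOS genes were above 0 in numbers 1 to 4, or 0.406, 0.391, 0.392 and 0.401 per 100 shared symbols (mean 0.398 ± 0.0072 SD, n = 4). The highest of the other 20 libraries was TGA number 2 class 8 at 0.311. By construction each deep WT number 1 library holds all of the shared set, at 0.263, and the other WT libraries ran from 0 to 0.186. These figures are descriptions of a gene set chosen with earlier results known and carry no test.

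**Figure D3:**
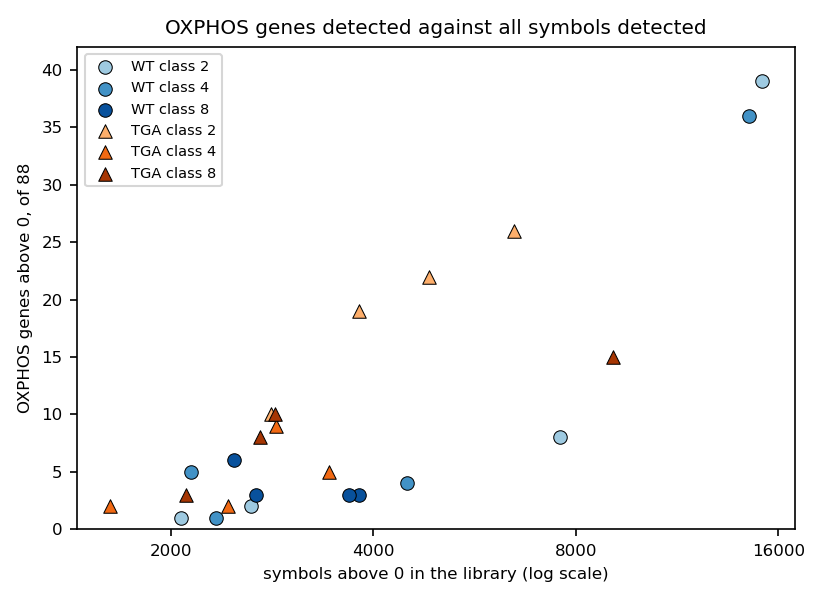
OXPHOS genes above 0 (y axis, of 88) against all symbols above 0 (x axis, log scale), 1 point per library, circles for WT and triangles for TGA. TGA class 2 numbers 2 to 4 (19 to 26 genes) lie above libraries of like coverage, such as WT number 4 class 2 with 8 genes at 7570 symbols, and number 1 is level with TGA number 2 class 8 (10 genes each).

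Other abundant transcripts also stood high in the TGA class 2 libraries. Cytosolic ribosomal protein genes made up 0.639, 0.577, 0.578 and 0.510 per 100 symbols above 0 in TGA class 2. Of the other libraries, TGA number 4 class 8 (0.589) lay within that range and the rest were at 0.380 or less. Of 12 hepatocyte markers, Apoa1 and Trf were above 0 in all 24 libraries, Ahsg in 22, Alb, Serpina1e and Cps1 in 19 and Apob in 16. The others were seen less often, with Hnf4a in 12, Ttr and Apoa2 in 11, Fgb in 10 and Serpina1a in 6. The log2 values of all 12 summed to 95.3 to 104 in TGA class 2, against 60.1 to 70.8 in TGA class 4, 53.5 to 94.7 in TGA class 8 and 34.2 to 93.5 in WT class 2. The 5 macrophage markers were all at 0 in TGA class 2, as were the 5 lymphocyte markers. They were rare elsewhere too: each macrophage marker was above 0 in 1 to 3 of the 24 libraries and each lymphocyte marker in 0 to 5. The macrophage markers were also all at 0 in WT class 2 numbers 2 to 4. Of the 5 endothelial markers 1 was above 0 in each TGA class 2 library (summed log2 values of 1.77 to 6.25, and 0 to 8.22 in WT class 2). Of the 5 cholangiocyte markers 1 was above 0 in TGA class 2 numbers 1 and 4 (2.04 and 0.99), and of the 5 stellate markers 1 in number 3 (0.59). The part of hepatocyte content or RNA quality in the OXPHOS values was not tested, and in bulk samples fewer cells of a type and less RNA per cell cannot be told apart.

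Averaged over all 88 genes, zeros included, the level was 0.60 ± 0.083 (SD, n = 4) in TGA class 2. It was 0.23 ± 0.23 in WT class 2, 0.26 ± 0.18 in WT class 4 and 0.16 ± 0.097 in WT class 8. TGA class 4 stood at 0.23 ± 0.14 and TGA class 8 at 0.32 ± 0.14. The lowest TGA class 2 library (0.52) lay below WT number 1 class 2 (0.57), so on this scale the class 2 groups overlapped through that WT library alone. Without the 2 WT class 2 libraries that hold over 7000 symbols, the remaining 2 were at 0.067 and 0.10.

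By complex, TGA class 2 had the highest group mean for complexes I, III, IV and V. Complex I stood at 0.77 ± 0.23 there, against 0.32 ± 0.31 in WT class 2, 0.14 ± 0.18 in TGA class 4 and 0.33 ± 0.15 in TGA class 8. Its lowest TGA class 2 library (0.57) was above every TGA class 4 and class 8 library (0.48 at most), and of the WT libraries only number 1 class 2 (0.74) exceeded it. Complex II was highest in WT class 4, 1.25 ± 0.97, with libraries from 0 to 2.06, and at 0 in all WT class 8 libraries. Complex III had 0.49 ± 0.29 in TGA class 2, while the WT class 8 libraries stood at 0.68, 0.72, 0 and 0.21. It was at 0.045 ± 0.090 in TGA class 8, where 3 libraries were at 0. Complex IV stayed between 0.031 ± 0.044 (WT class 2) and 0.15 ± 0.039 (TGA class 2). The mean of TGA class 8 was close to that of TGA class 2, with libraries at 0, 0.23, 0.076 and 0.26. For complex IV, the class 8 libraries TGA number 2 (0.23), TGA number 4 (0.26) and WT number 1 (0.22) stood above every TGA class 2 library (0.18 at most). Complex V was at 0.82 ± 0.33 in TGA class 2, 0.50 ± 0.25 in TGA class 4 and 0.56 ± 0.38 in TGA class 8, and at 0.34 ± 0.38, 0.30 ± 0.33 and 0.22 ± 0.38 in WT classes 2, 4 and 8. In each of these complexes, SDs between libraries were of the size of most differences between groups. In complex I this held for the groups other than TGA class 2. Some groups also stood apart in other complexes. In complex IV the lowest TGA class 2 library (0.10) was above the highest of WT class 2 (0.094). In complex III the lowest TGA class 2 library (0.23) was above the highest of TGA class 8 (0.18).

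**Figure D4:**
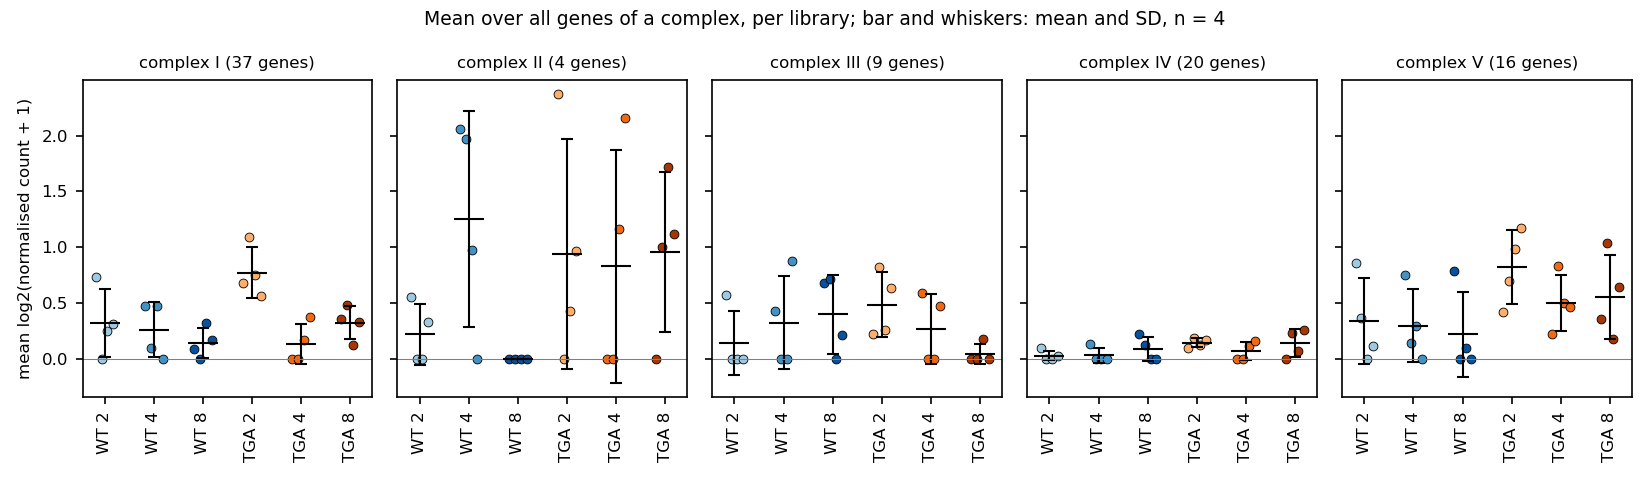
Mean log2(normalised count + 1) over all genes of a complex (y axis), 1 panel per complex and 1 point per library, with the group mean and SD over 4 libraries. Complex I is at 0.77 in TGA class 2 against 0.14 in TGA class 4, while the scatter within groups in complex II runs from 0 to 2.37.

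For the tests, a gene had to reach a natural-log value of 1 in 4 or more libraries. This left 4875 genes, of which 13 were OXPHOS genes: Ndufa8, Ndufb7, Ndufb9, Ndufb10, Ndufs6, Ndufv1, Ndufv3, Sdha, Sdhc, Cyc1, Atp5a1, Atp5g3 and Atp5j2. All 13 are in the shared set, and complex IV had 0 genes tested. A gene can pass this filter through the group where it is high, so counts over the 13 do not speak for the 88.

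In transgenic liver, class 4 differed from class 2 in 1 OXPHOS gene. Ndufb7, an accessory subunit of the complex I membrane arm on the intermembrane-space side, was at 4.48, 4.34, 1.74 and 5.60 in TGA class 2. It was at 0 in all 4 TGA class 4 libraries and in all 4 TGA class 8 libraries. In WT it was above 0 in number 1 class 2 (1.81) and number 1 class 4 (1.32) and at 0 in the other 10 libraries. The fitted difference of class 4 from class 2 in TGA was -4.04 (SE 0.90, adjusted p = 0.04416, limma with Benjamini-Hochberg adjustment over all genes tested), and with 1 group at 0 it is no bound. Ndufb7 entered the tests through TGA class 2, the group where it is high: the only other library in which it reached the filter's level was WT number 1 class 2. In this comparison 41 genes, 0.841% of those tested, passed. The most frequent level above 0 in the TGA class 4 libraries was 3.57, 4.44, 1.75 and 2.26. The 1.74 of TGA number 3 class 2 lies at or under these, though lower levels also occurred in TGA class 4, down to 0.053 in number 3.

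The Ndufb7 call was close to its threshold. It was lost with the number of symbols above 0 as a covariate (-3.75, adjusted p = 0.1108) and with 3 other settings, and without number 2, 3 or 4 of WT or number 1, 2 or 4 of TGA (adjusted p from 0.05137 to 0.138 in limma). It was held without WT number 1 (adjusted p = 0.01552, where TGA class 2 alone carries the gene past the filter), without TGA number 3 (0.04547) and over the shared symbols (0.03902, limma). Class 8 against class 2 in TGA gave the same fitted difference with an adjusted p of 0.1370 (limma), which fell to 0.04056 over the shared symbols without the deep WT number 1 pair, where again TGA class 2 alone carries the gene past the filter. The comparisons of class 4 and of class 8 with class 2 share the TGA class 2 libraries.

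Of the 13 genes tested for class 4 against class 2 in TGA, 8 had lower and 5 higher fitted values, with a median of -1.35 beside -0.32 over all genes tested. Of all 4875 genes tested, 2730 were lower. Genes can pass the filter through TGA class 2, so counts over the 13 are no separate support. By unadjusted p under 0.05, 6 of the 13 were lower and 0 higher, where 12.4% of all genes tested were lower. After Ndufb7 the smallest p-values were those of Ndufb9 (-4.43, SE 1.68, adjusted p = 0.1858) and Atp5g3 (-3.03, SE 1.26, adjusted p = 0.2321, limma), which did not pass. TGA class 2 libraries held 2816 to 6468 symbols above 0 and TGA class 4 libraries 1624 to 3440, and the part of this gap in the differences was tested only by the covariate above.

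In WT, class 4 against class 2 gave 0 OXPHOS genes past the threshold, against 0% of all 4875 genes (limma). By unadjusted p under 0.05 the count was also 0 of 13, where 4.64% of genes had one in either direction. Sdha came nearest with 2.84 (SE 1.69, adjusted p = 0.9986, limma). The difference between genotypes in this class effect was -3.92 for Ndufb7 (SE 1.28, adjusted p = 0.7673) and -6.23 for Ndufb9 (SE 2.38, adjusted p = 0.7673, limma). In that interaction 0 of 13 passed, with a background of 0%, and 3 had an unadjusted p under 0.05, all lower, where 4.76% of genes did. The call in TGA is therefore not shown to differ from WT.

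Over both genotypes, class 4 against class 2 had 0 of 13 past the threshold in limma, against 0.308% of genes, and 4 with an unadjusted p under 0.05, all lower, where 10.5% of genes were. The smallest p-values belonged to 3 complex I genes, Ndufb7 (-2.08, SE 0.64, adjusted p = 0.1572), Ndufv3 (-2.66, SE 1.01, adjusted p = 0.2498) and Ndufv1 (-2.32, SE 0.99, adjusted p = 0.3086). The mean over all 88 genes differed by -0.17 between these classes, beside -0.042 for all symbols. By complex the difference was -0.35 for complex I and 0.46 for complex II, where the pooled SDs between libraries were 0.24 and 0.89.

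Class 8 differed from class 2 or from class 4 in none of the 13 genes by adjusted p. Against class 2, in limma 0 of 13 passed over both genotypes (background 0.0205%), with 1 unadjusted p under 0.05, lower, where 6.07% of genes were lower. That gene was Ndufb7 at -2.25 (SE 0.64, adjusted p = 0.455). Within TGA 0 of 13 passed (background 0%), with 2 unadjusted p under 0.05, both lower where 5.91% of genes were, in Ndufb7 and Atp5g3 (-3.32, SE 1.26, adjusted p = 0.4629). Within WT 0 of 13 passed (background 0%), and 0 had an unadjusted p under 0.05, where 4.86% of genes had one. The interaction with genotype had 0 of 13 past the threshold (background 0%) and 1 with an unadjusted p under 0.05, lower where 2.46% of genes were, Ndufb7 at -3.59 (SE 1.28, adjusted p = 0.9987). For class 8 against class 4, 0 of 13 passed (limma, background 0%) and 0 had an unadjusted p under 0.05 (background 6.58%), and the means over all 88 genes differed by -0.0055. Ndufv1 had the smallest p in that comparison, at 1.48 (SE 0.99, adjusted p = 0.7944).

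Transgenic against wild-type liver was compared over the mean of the 3 classes of each number, and in each class. Over all classes 0 of 13 genes passed in limma, where 0.492% of all genes did. Of the 13, 12 had higher fitted values in TGA and 1 lower, where 2669 of all 4875 genes were higher. Genes can pass the filter through TGA class 2, so this count is no separate support. The median was 1.02 beside 0.12 over all genes tested. By unadjusted p under 0.05, 1 gene was higher, where 3.65% of genes were. That gene was Atp5a1, at 2.81 (SE 1.02, adjusted p = 0.3282). Its TGA values, above 0 in 9 of 12 libraries, stood against 3 of 12 in WT, 2 of them in the deep number 1 libraries. Atp5a1 passed without WT number 1 (3.77, adjusted p = 0.03464), without the 4 libraries of over 7000 symbols (4.13, adjusted p = 0.03295) and over the shared symbols without the deep WT number 1 pair (3.84, adjusted p = 0.0331, limma). Each of these settings leaves out the deep pair, which holds the highest WT values of this gene (6.22 and 6.08). These calls are therefore no separate support. Of 16 alternatives 3 gave a call, and the adjusted p reached 0.7548 (limma).

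In class 2, all 13 genes tested had higher fitted values in TGA than in WT, with a median of 1.60 beside 0.15 over all genes. Of all 4875 genes tested, 2620 were higher. Genes can pass the filter through TGA class 2, so the count over the 13 is no separate support. Without the filter the median was 0.53 over 50 OXPHOS genes and 0 over all genes. In limma 0 of 13 passed (background 0.103%) and 2 had an unadjusted p under 0.05, where 6.56% of all genes were higher. Ndufb7 was higher by 3.59 (SE 0.90, adjusted p = 0.1521), with 4 of 4 TGA values above 0 against 1 of 4 in WT. The lowest TGA value, 1.74, lay under the 1.81 of WT number 1. The call depended on the libraries fitted: it was made without WT number 1 (4.04, adjusted p = 0.01797) and without TGA number 3 (4.35, adjusted p = 0.02884). Without WT number 1, Ndufb7 passed the filter through the 4 TGA class 2 libraries alone and was at 0 in all others, so this call is no separate support. Ndufb9 had 3.91 (SE 1.68, adjusted p = 0.5444) and Atp5g3 2.42 (SE 1.26, adjusted p = 0.5824).

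Class 4 showed no such lean, with 6 genes higher and 7 lower in TGA and a median of -0.11. In limma 0 of 13 passed there (background 0.0205%) and 0 had an unadjusted p under 0.05 (background 4.25%). In class 8, 0 of 13 passed (background 0.0205%) and 3 had an unadjusted p under 0.05, all higher, where 5.19% of genes were. These were Atp5a1 (4.37, SE 1.73, adjusted p = 0.4217), Ndufb9 (3.79, SE 1.68, adjusted p = 0.4603) and Ndufv1 (3.07, SE 1.40, adjusted p = 0.4763), each at 0 in all 4 WT class 8 libraries and above 0 in 3 or 4 of TGA. The WT class 8 libraries held 2479 to 3814 symbols above 0, with most frequent levels of 1.62 to 3.39. Lower levels also occurred there, down to 0.038 in number 4 and 0.12 in number 3.

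The genes that surround oxidative phosphorylation were read from lists chosen in the same way, and 0 of their tested genes passed in any of the 13 comparisons (limma). Of the 13 mitochondrial-encoded subunits 7 were tested, and in class 4 against class 2 all 7 had higher fitted values (median 2.56, 6 with an unadjusted p under 0.05), where 153 of all 4875 genes were higher by that p and the median was -0.23 over all genes and -0.41 over the 13 nuclear ones. Their mean level was 5.49 ± 0.54 (SD, n = 4) in WT class 4 and 3.40 ± 0.99 in WT class 2, without overlap (5.13 at the lowest and 4.42 at the highest). In TGA it was 4.48 ± 1.60 in class 4 and 3.70 ± 0.34 in class 2, and these overlapped. The difference of the nuclear from the mitochondrial set was not tested.

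The citric acid cycle and pyruvate dehydrogenase list had 8 of 19 genes tested, with a median of 1.24 for TGA against WT in class 2 and -0.32 for class 4 against class 2 in TGA. In the same order the medians were 0.80 and -0.80 for 6 mitochondrial ribosomal protein genes, and 0.78 and -1.35 for 6 regulators of mitochondrial biogenesis. Cytosolic ribosomal proteins, with 21 of 86 tested, had 1.48 and -1.02, close to the 1.60 and -1.35 of the OXPHOS genes. Assembly factors of the respiratory chain, with 5 of 46 tested, had -0.39 and -0.43. Of electron carriers and of metabolite carriers only 2 genes each were tested. Over all genes tested the medians were 0.15 and -0.32. Both comparisons share TGA class 2, through which genes can pass the filter, so the medians of these lists are no separate support.

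Transcript length stood beside the number of OXPHOS genes at 0. Lengths are medians over the protein-coding transcripts of a gene in GENCODE M21 and were found for 85 of the 88. Of these 85, 42.4% were at 0 in all libraries, against 26.4% of 20576 symbols with a length. The median length of the 36 at 0 was 613 nt, of the 49 above 0 704 nt, and of all matched symbols 2005 nt. Among genes of up to 600 nt, 53.1% of 32 OXPHOS genes and 53.0% of all symbols were at 0. From 601 to 1000 nt it was 37.1% of 35 and 39.5%, and from 1001 to 2000 nt 26.7% of 15 and 32.8%. In these 3 ranges the OXPHOS share was thus level with or below that of all symbols, and of the 3 genes over 2000 nt 2 were at 0. Of the complexes, complex III had the shortest median (533 nt), followed by complex IV (588.5 nt), yet 77.8% of complex III and 30.0% of complex IV genes were above 0 somewhere.

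**Figure D5:**
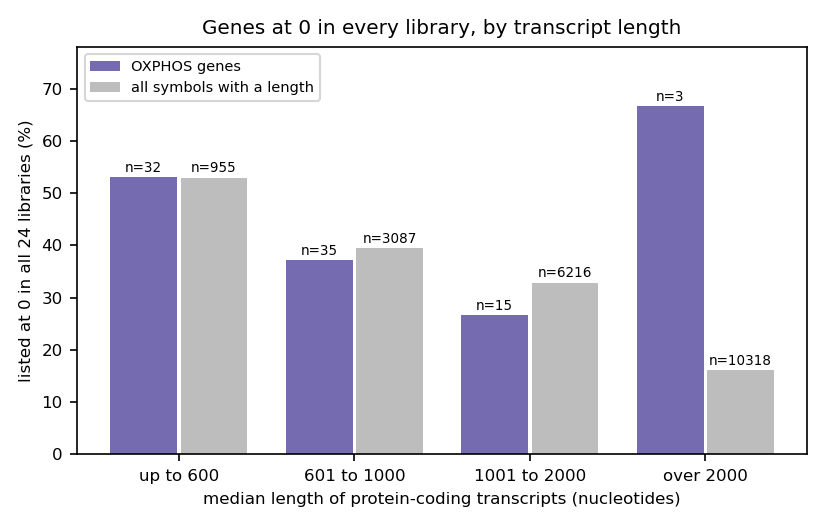
Share of genes listed at 0 in all 24 libraries (y axis, percent) by median length of protein-coding transcripts (x axis, nucleotides), OXPHOS genes beside all symbols with a length. In genes of up to 600 nt the shares are 53.1% and 53.0%, and the range over 2000 nt holds 3 OXPHOS genes.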

How the data were processed

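RNA-seq was measured in 24 libraries of mouse liver, 4 per group. Reads were aligned to mm9 with TopHat, and edgeR was named without its role, per the submitters' processing notes. The sources used here give no versions, counting program or strand setting. The authors deposited 1 table per gene symbol. Its unit is not stated. From the values, it was read as the natural log of count + 1 made alike across libraries by quantile normalisation, since 20 libraries share the highest deposited value (within 1e-09). Depth in reads is therefore unknown, and the number of symbols above 0 stands in for it. Quantile-normalised levels follow rank within a library, and fractional levels occur, so whole reads were not recovered.

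Deposited natural-log values were divided by ln 2 to give log2(normalised count + 1). Genes that reached a deposited natural-log value of 1 in 4 or more of the libraries fitted were tested with limma 3.58.1 (R 4.3.3, mean-dependent prior). The fit had 1 mean per group over 24 libraries, or, for TGA against WT over all classes, the 4 means per genotype. P-values were Benjamini-Hochberg adjusted over all genes tested and called under 0.05. Means over all 88 genes are descriptions with no test. The fit was tested on simulated data only as a check of the code. Those were independent normal values without zeros, nesting or differences in coverage, so the check does not bear on calls in sparse values like these. Transcript lengths came from GENCODE M21, which is on another build than mm9, so no coordinates are given.

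Genes named were those past the threshold, the 3 with the smallest p in each comparison, the 10 above 0 in the most libraries, the highest mean of each complex, isoform sets of complex IV and, where few, genes at 0. Others (Ndufs1, Ndufv2, Ndufs7, Ndufab1, Sdhb, Sdhd, Uqcrc1, Uqcrc2, Uqcrb, Uqcrfs1, Atp5b, Atp5g1, Atp5g2, Atp5o and Atp5e) were added after their values were seen, for their known roles. The genes, lists and alternatives were chosen with earlier results of these data known. Alternatives changed the pseudocount (10), the filter, the scaling, a coverage covariate, a replicate block and the libraries left out. The shared-symbol fits were added after the nesting of libraries was seen.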

Additional observations from a re-analysis of the deposited data

Results flagged for a closer look

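Within groups of 4 libraries, 42 sets of values (genes above 0, the mean over all genes and the means of 5 complexes, in 6 groups) were searched for a library standing apart by Dixon's ratio. It was found in 6 sets. For normal values the ratio flags about 1 set in 20. That rate does not apply here, since ties between libraries set the ratio by themselves and the sets share genes. The 6 are therefore not set against a chance rate. WT number 1 stood highest in 5 of them: complex III in class 2 (mean 0.58, the other 3 libraries at 0), the number of OXPHOS genes above 0 in class 4 (36, the others at 1 to 5), complex IV in class 4 (0.14, the others at 0), the number above 0 in class 8 (6, the others at 3), and complex V in class 8 (0.79). In class 8 the coverage of WT number 1, 2479 symbols above 0, was the lowest of its group, unlike in classes 2 and 4. The sixth was complex III in TGA number 3 class 8 (0.18, the others at 0), a library with 9096 symbols above 0.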

How the results depend on the processing

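The values are rank-based, sparse and without read depth. Detection in 15 libraries is bounded by a WT number 1 library, which crosses genotype, and 13 of 88 genes could be tested. The number of OXPHOS genes called for class 4 against class 2 in TGA fell from 1 to 0 with pseudocount 10, without the filter, with the coverage covariate and with library-centred values, and ranged from 0 to 1 when a number was left out. It rose from 0 to 1 for TGA against WT over all classes (Atp5a1) without the libraries over 7000 symbols and over shared symbols without the deep pair, and for TGA against WT in class 2 and class 8 against class 2 in TGA (Ndufb7) in the latter setting. Both settings leave out the deep WT number 1 pair, which holds the highest WT values of both genes. Leaving out a number gave 0 to 1 in both comparisons of TGA with WT. The cause was not tested.

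Over all genes, the calls for class 4 against class 2 in TGA went from 41 to 0 without the filter and 84 without the libraries over 7000 symbols. For TGA against WT over all classes they went from 24 to 9 without the filter and 100 without WT number 1, and in class 2 from 5 to 77 over shared symbols without the deep pair. Mean differences over the genes moved when fewer genes at 0 were averaged, and kept their direction except that class 8 against class 4 went from -0.0055 to 0.053 over shared genes without the deep pair. With the genes tested only, they were -0.58 (class 4 against 2), -0.83 (class 8 against 2), -0.24 (class 8 against 4) and 0.96 (TGA against WT). Over the shared genes they were -0.46, -0.53 and 0.57 for the first, the second and the last, and without the deep pair -0.40, -0.35 and 0.74. Of single genes, Atp5j2 in TGA against WT in class 4 ran from -0.40 (without TGA number 2, a reversal) to 1.70 when a number was left out, beside 1.18, with no call in any.

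With the number as a replicate block, OXPHOS calls were 1 (Ndufb7, adjusted p = 0.03738, limma) for class 4 against class 2 in TGA, as without it, and 0 in the other 12 comparisons. Genes called overall there went from 41 to 63, and for TGA against WT in class 2 from 5 to 1. Deviations from the group means gave at most a weak sign of pairing by number. Of 24 same-number pairs within a genotype, 2 correlated above 0.1 (median 0.033, highest 0.43, that of WT number 1 classes 2 and 4). Of 72 pairs of another number and class within a genotype, 2 did (median -0.014). Across genotypes within a class it was 0 of 12 pairs of the same number and 5 of 36 of another number. Whether a number marks 1 animal is not given.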
